A study of Danio rerio with 9 samples.

Results

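The heat shock proteins and chaperones of the zebrafish inner ear were followed on Day 2 and Day 4 after acoustic trauma. They were taken as every probe of the array whose gene name begins like a heat shock protein, J-domain protein, CCT subunit, BAG, ST13, calreticulin or related gene, or whose description holds the words heat shock. This gave 71 of the 21495 probes, with 44 different gene names. Of these, 30 matched by both name and description, 27 by name alone and 14 by description alone. By their annotation, 42 probes stand for cytosolic chaperones, 11 for mitochondrial and 10 for endoplasmic reticulum (ER) chaperones, and 6 for nuclear heat shock factors and their binding protein. One further probe is related to HSP70 but could not be placed, and another, hspc049l, is listed in RefSeq as wdr91 and is no chaperone.

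RNA came from whole inner ears of adult zebrafish. The Day 2 and Day 4 fish had been held for 36 h in a loud low-frequency tone (100 Hz) and then left for 2 or 4 days, and the controls were kept in the same chamber with no sound. The ears of 18 to 20 fish were pooled in each group, and each pool was hybridized to 3 single-colour arrays, 9 in all. The 3 arrays of a group are therefore technical replicates, and every P-value measures the spread between hybridizations, not between fish. In such bulk tissue, fewer cells of a type cannot be told apart from less RNA per cell.

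Chaperones help proteins fold and keep unfolded ones from clumping. In the cytosol, HSP70 and HSP90 work with J-domain and other co-chaperones, and the CCT (TRiC) ring folds actin and tubulin. HSP60 (hspd1), HSP10 (hspe1) and mtHSP70 (hspa9) serve the mitochondrion, and BiP (hspa5), the calreticulins and the collagen chaperone HSP47 serve the ER. Under stress, heat shock factor 1 switches on genes such as the inducible hsp70, and in hair cells of the mouse HSP70 induction is known to protect against ototoxic damage. Unfolded protein in the ER is answered by a separate pathway that raises BiP and calreticulin.

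Levels are log2 signals relative to the median of their own array, and they cannot be compared between probes. A probe was significantly regulated at an adjusted P of at most 0.05 (limma, Benjamini-Hochberg over all 21495 probes, with the slide in the model) and a fold change of at least 1.4. Of the 71 probes, 57 were well above background on all 9 arrays, 7 on some arrays only and 7 on none. None of their spots was saturated. All probe positions are those of the array files, on build danRer2. Some probes of the same gene overlap in position, so counts of probes are not counts of separate targets.

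The Day 4 arrays were spread unevenly over slides that differed in background and scan day. The first Day 4 array shared slide 1 with a control and a Day 2 array, whereas the other Day 4 arrays were on slide 3 with replicate 3 of the controls and of Day 2, scanned on another day. This layout comes from the array file headers, and slide 3 cannot be told apart from its scan day. The study's methods describe an even layout with each time point on every slide, which the replicate number would then follow, so fits with that number as a block are given where they change a call. The arrays of slide 3 had a median local background of 129 to 153.5, against 63.5 to 74.0 on the other slides, and 39.5% to 47.9% of spots well above background, against 49.5% to 56.9%. Median spot intensity, which sets the scaling, was 53.6 and 60.7 on the Day 4 arrays of slide 3. It was 78.4 to 94.0 on all other arrays. The part of this in the Day 4 values was not tested beyond the other scalings. Among all probes well above background on all 9 arrays, the median log2 fold change was 0.05 for Day 2 over Control, 0.12 for Day 4 over Control and 0.06 for Day 4 over Day 2. Chaperone values were read against these shifts.

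Heat shock factor 2 was the only member that was significantly regulated. This transcription factor belongs to the same family as heat shock factor 1 and is better known from development than from acute heat shock. Its probe A_15_P116826 (chromosome 20, 51008717 to 51008776) gave 4.17, 4.07 and 4.21 on the control arrays, 5.17, 5.13 and 5.24 on Day 2, and 5.44, 5.77 and 5.68 on Day 4. Every exposed array lay above every control array, and every Day 4 array above every Day 2 array. The hsf2 signal rose 2.04-fold on Day 2 (log2 fold change 1.03 ± 0.12, SE, adjusted P = 0.0329) and 2.68-fold on Day 4 (1.42 ± 0.13, adjusted P = 0.0248). Day 4 stood 0.39 ± 0.13 above Day 2, which did not pass (adjusted P = 0.454). Within slides, the hsf2 log2 difference between Day 2 and Control was 1.00, 1.07 and 1.02, and that between Day 4 and Control was 1.27 on slide 1 and 1.51 on slide 3. With the replicate number as a block in place of the slide, the adjusted P of hsf2 was 0.0672 on Day 2 and 0.0338 on Day 4. With 1 array left out, it was 0.0201 to 0.508 on Day 2 and 0.0283 to 0.539 on Day 4, and the call held only without the second Day 4 array, while the log2 fold change stayed between 1.00 and 1.08 on Day 2 and between 1.37 and 1.51 on Day 4. The second hsf2 probe, A_15_P109959, lies at 50997240 to 50997299 on the same chromosome and did not reach the well-above-background flag on any array, so its level is not given.

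One member of 71 was thus called in Day 2:Control, where 0.735% of all probes were called, 1 in Day 4:Control, where 0.279% were, and 0 in Day 4:Day 2, where 0.0651% were. Before adjustment, 3, 9 and 14 members had a P of at most 0.05 together with a 1.4-fold change, as did 5.7%, 6.98% and 6.16% of all probes. When the test was run only on probes well above background on all 3 arrays of at least 1 group, 2, 9 and 11 of the 60 members tested were called in the same 3 comparisons, against 8.98%, 9.56% and 9.5% of the 10040 probes tested. These calls are given below as the bright-probe test. The fold changes are the same, and why more probes were called was not tested. Besides hsf2, each member called by the bright-probe test was called in only 2 to 6 of the 21 alternatives listed at the end. These counts include the bright-probe test itself. Without slide 3, 5 arrays remained with 1 residual degree of freedom, and the lone Day 4 array was assumed to vary like the other groups. The calls of that fit are therefore not given, and its median changes are given with the other alternatives.

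The 3 arrays of each group did not overlap for 25 of the 71 members in Day 2:Control, 8 of them higher and 17 lower on Day 2. Of all probes, 24.4% did not overlap (15.6% higher and 8.8% lower). In Day 4:Control 23 members did not overlap, 21 higher and 2 lower on Day 4, against 19.1% of all probes (15.6% higher and 3.52% lower). In Day 4:Day 2 there were 29, with 24 higher and 5 lower on Day 4, against 18.7% of all probes (12.8% higher and 5.97% lower). Bright probes overlapped less often, and among them the shares without overlap were 33.3%, 35.1% and 40.4% of members, against 42.4%, 32.7% and 31.1% of all bright probes. On Day 2 the members' share was thus above that of all probes but below that of bright probes. The direction differed, since 7 of the 57 bright members lay higher on Day 2 without overlap and 12 lower. Of the 8024 bright probes 2371 lay higher and 1033 lower.

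At both member probes, the inducible hsp70 was at control level on Day 2 and stood about 2-fold higher on Day 4. Probe A_15_P103668 (chromosome 3, 16140984 to 16141043) gave 6.98, 6.88 and 6.97 on the control arrays, 6.90, 6.92 and 7.09 on Day 2, and 8.05, 8.07 and 7.86 on Day 4. Probe A_15_P110618, which begins at 16141123, gave 6.45, 6.38 and 6.61, then 6.30, 6.42 and 6.73, then 7.43, 7.53 and 7.31. For both hsp70 probes the Day 4 arrays lay apart from all others, and the Day 2 and control arrays overlapped. The log2 fold change was 0.03 ± 0.13 and 0.00 ± 0.14 in Day 2:Control (adjusted P = 0.964 and 0.996). In Day 4:Control it was 1.02 ± 0.14 and 0.87 ± 0.15 (adjusted P = 0.0793 and 0.166), and in Day 4:Day 2 it was 0.99 ± 0.14 and 0.87 ± 0.15 (adjusted P = 0.125 and 0.200). In the bright-probe test the adjusted P of hsp70 in Day 4:Control was 1.16e-07 and 4.23e-06. The Day 4 difference from Control was 1.08 and 0.97 on slide 1 and 1.00 and 0.82 on slide 3, so it was as large on the slide with 1 Day 4 array. Both probes lie close together and may share a target, which was not tested. A nearby HSP70 probe outside the selection, A_15_P105258, gave -0.93 in Day 2:Control (adjusted P = 0.0530) and is described below.

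**Figure D1:**
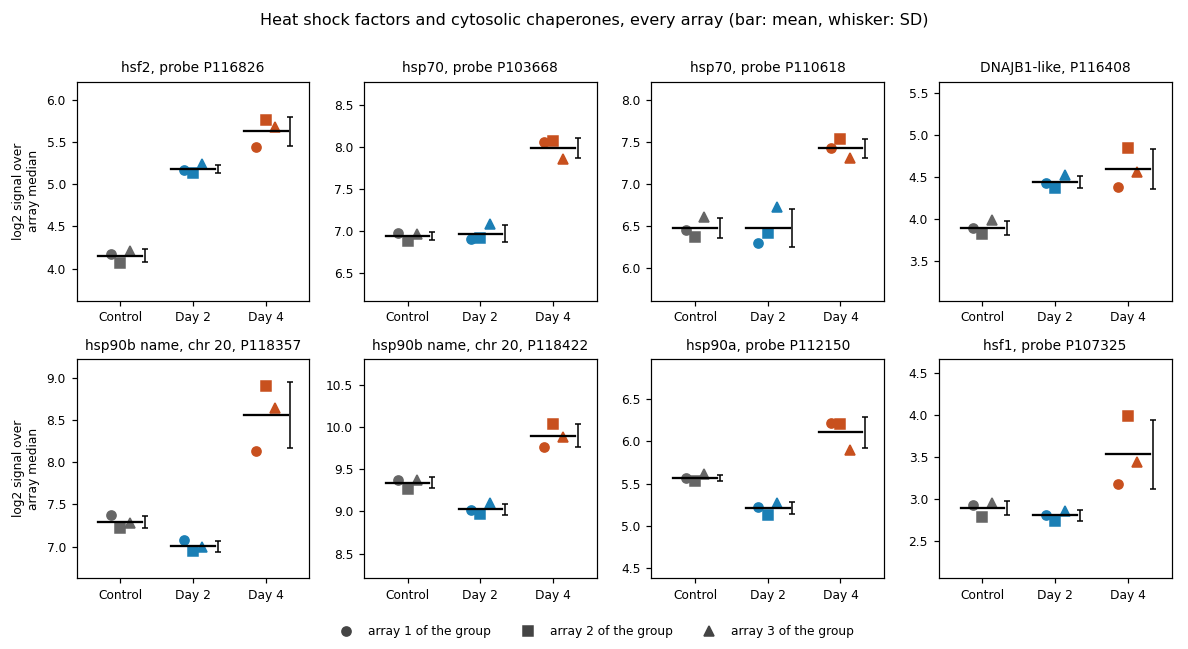
Log2 signal over the array median (y axis, the same span of log2 units in each panel) on every array of the Control, Day 2 and Day 4 groups, with the group mean as a bar and its SD as a whisker. The hsf2 probe is higher on both days, both hsp70 probes only stand apart on Day 4, and 3 HSP90 probes of chromosome 20 lie below the controls on Day 2 and above them on Day 4.

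The other cytosolic HSP70s differed less from the controls than hsp70 on Day 4, but not on Day 2. For hspa8, the abundant HSC70, the log2 fold change was 0.06 in Day 2:Control and 0.25 in Day 4:Control (adjusted P = 0.952 and 0.515), and on slide 1 the Day 4 difference from Control was 0.01. The 2 probes of hspa4, a nucleotide exchange factor of HSP70, gave 0.09 and 0.11 in Day 2:Control and 0.01 and 0.09 in Day 4:Control. They share the same position. A related probe, hspa4l, read 6.12, 5.99 and 6.09 in controls, 5.90, 5.79 and 5.83 on Day 2, and 6.34, 6.71 and 6.42 on Day 4. The hspa4l arrays of Day 2 were all below the controls and those of Day 4 all above, with a log2 fold change of 0.61 ± 0.15 in Day 4:Day 2 (adjusted P = 0.313). The probe A_15_P113390 of hspa8l gave 4.26, 4.11 and 4.18 in controls, 3.89, 3.64 and 3.75 on Day 2 and 4.56, 4.63 and 4.25 on Day 4. Day 2 differed from the controls by -0.42 ± 0.14 (adjusted P = 0.384), and Day 4 overlapped the controls and lay 0.69 ± 0.15 above Day 2 (adjusted P = 0.274). The bright-probe test called both hspa4l and this hspa8l probe in Day 4:Day 2. In Day 2:Control, 2 of 21 alternatives called this hspa8l probe lower. The other hspa8l probe was dim.

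Cytosolic HSP90, which finishes the folding of kinases and steroid receptors and in zebrafish muscle (hsp90a) of myosin, was below the controls on Day 2 at all 11 of its probes. The values of the 10 probes well above background ran from -0.36 to -0.06 in Day 2:Control. None passed the test. Of these 10, 7 lay below the controls without overlap, as did 12.9% of all probes well above background on all 9 arrays. Some of the 10 overlap in position and are not separate measurements. A_15_P107896 and A_15_P116996 begin at 60379030 and 60379040, and A_15_P113511 and A_15_P107807 at 60373278 and 60373279. All 10 stayed below 0 with the 75th percentile and quantile scalings. With the normexp background, where the median of all bright probes was itself 0.42, the 10 were above 0 but below that median. Leaving out 1 array put A_15_P113511, A_15_P104812 or both above 0 in 3 cases, and within slide 1 these probes and A_15_P107807 were 0.02 to 0.07 above Control. On Day 4 the probes parted. A pair of probes that carry the name hsp90b lie on chromosome 20, 5195 and 14725 bases from the nearest hsp90a probe, whereas the other 6 lie on chromosome 7. Which HSP90 gene the chromosome 20 probes detect was not tested.

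Probe A_15_P118357 (chromosome 20, 58628392 to 58628451, named hsp90b) gave 7.37, 7.23 and 7.28 on the control arrays, 7.08, 6.95 and 6.99 on Day 2 and 8.13, 8.90 and 8.65 on Day 4. Its log2 fold change was -0.29 ± 0.20 in Day 2:Control, 1.20 ± 0.21 in Day 4:Control, while Day 4 over Day 2 gave 1.49 ± 0.21 (adjusted P = 0.943, 0.167 and 0.127). The Day 4 difference from Control was 0.76 on slide 1 and 1.49 on slide 3. Probe A_15_P118422 (chromosome 20, 58618862 to 58618921, named hsp90b) gave 9.38, 9.27 and 9.38 in controls, 9.01, 8.97 and 9.10 on Day 2, and 9.76, 10.04 and 9.88 on Day 4. Its log2 fold change was -0.31, 0.51 and 0.82 in the 3 comparisons (adjusted P = 0.482, 0.309 and 0.142). The hsp90a probe A_15_P112150, which begins at 58633646 on the same chromosome, read 5.57, 5.54 and 5.61 in controls, 5.22, 5.13 and 5.27 on Day 2 and 6.22, 6.20 and 5.89 on Day 4. It gave -0.36 ± 0.14, 0.52 ± 0.15 and 0.88 ± 0.15 (adjusted P = 0.494, 0.371 and 0.180). All 3 probes had the Day 2 arrays below and the Day 4 arrays above every control array, a pattern of 0.916% of all probes and 2.04% of bright ones. The bright-probe test, which rests on the same values as this pattern, called all 3 in Day 4:Control and Day 4:Day 2.

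Another hsp90a probe, A_15_P110190 (58638767 to 58638826), did not show this and gave -0.24 in Day 2:Control and -0.28 in Day 4:Control. On chromosome 7 the hsp90b probes also disagreed on Day 4. Probes A_15_P104812, A_15_P107807 and A_15_P113511 gave 0.22, 0.24 and 0.26 in Day 4:Control, and -0.03, 0.01 and 0.01 on slide 1. Probes A_15_P107896 and A_15_P116996 of hsp90b gave -0.28 and -0.22, and A_15_P119924 gave 0.31. For none of these was the adjusted P below 0.442 in any comparison.

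**Figure D2:**
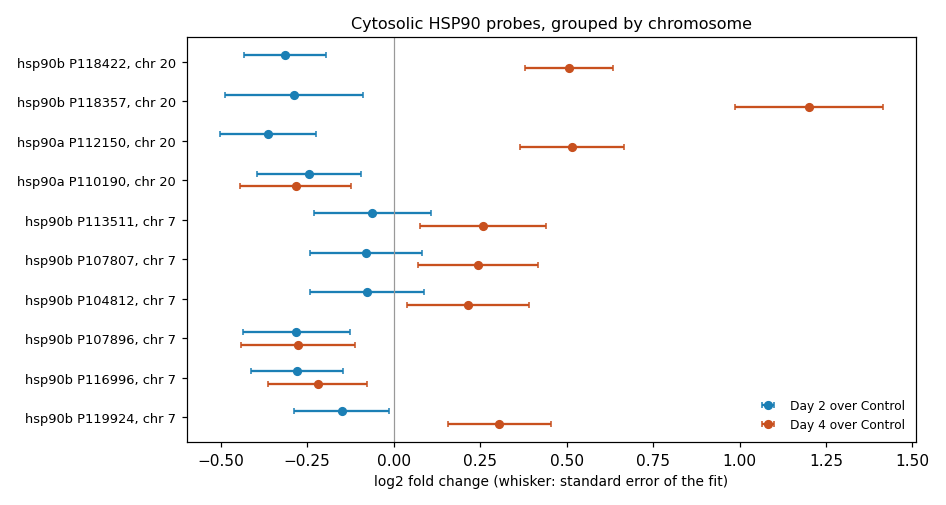
Log2 fold change (x axis, with the standard error of the fit) of the 10 HSP90 probes well above background, for Day 2 over Control and Day 4 over Control, grouped by chromosome. All 10 Day 2 values lie between -0.36 and -0.06 with this scaling, and on Day 4 the values run from -0.28 to 1.20, with 3 of the 4 highest on chromosome 20.

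Among J-domain proteins, which deliver clients to HSP70, a probe described as similar to human DNAJB1 (A_15_P116408, chromosome 5, 41724089 to 41724149) was higher on both days. It read 3.89, 3.82 and 3.98 in controls, 4.43, 4.37 and 4.52 on Day 2, and 4.38, 4.84 and 4.56 on Day 4. Both exposed groups lay above the controls and overlapped each other. The DNAJB1-like log2 fold change was 0.54 ± 0.14 in Day 2:Control and 0.63 ± 0.15 in Day 4:Control (adjusted P = 0.217 and 0.272), and both were called by the bright-probe test (1.19e-03 and 6.20e-04). It differed by 0.09 between Day 4 and Day 2. A probe outside the selection that is described as DnaJ homolog B member 1, A_15_P108778, gave 0.04 in Day 2:Control and 0.73 in Day 4:Control (adjusted P = 0.954 and 0.182), and so had no such Day 2 value. The probes of dnaja2 and dnaja2l, type A J-domain proteins, gave -0.04 and -0.15 in Day 2:Control and 0.13 each in Day 4:Control. The small heat shock protein hspb1, an HSP27 that binds unfolded protein without ATP, gave -0.05 in Day 2:Control and 0.42 in Day 4:Control (adjusted P = 0.952 and 0.485). A probe described as small heat shock protein B2, A_15_P105417, gave -0.17 and 0.06 (adjusted P = 0.952 and 0.896).

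Heat shock factor 1 (hsf1, A_15_P107325), the main activator of the heat shock response, read 2.93, 2.79 and 2.95 in controls, 2.82, 2.74 and 2.86 on Day 2, and 3.18, 3.98 and 3.44 on Day 4. The Day 4 arrays of hsf1 lay above all others but spread widely. Its log2 fold change was -0.09 ± 0.20 in Day 2:Control and 0.56 ± 0.21 in Day 4:Control (adjusted P = 0.952 and 0.485), with 0.25 on slide 1 and 0.76 on slide 3. Day 4 over Day 2 gave 0.65 ± 0.21 (adjusted P = 0.453). The bright-probe test called hsf1 in Day 4:Control and in Day 4:Day 2. Of 21 alternatives, that test included, 2 and 3 called it in these comparisons. A dim probe described as a heat shock transcription factor starts 104 bases away, and its level is not given. For the factors' binding protein, the HSBP1-like probe A_15_P107182 gave 0.22 on Day 2 and 0.16 on Day 4 (adjusted P = 0.837 and 0.528). Neither group overlapped the controls. The other HSBP1-like probe, A_15_P118117, gave 0.09 and -0.01 and overlapped them.

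The CCT ring had values near those of all bright probes. Its probes are not all separate. Those of cct3 and of cct7 overlap in position, and A_15_P113634 and A_15_P116402 of tcp1 share the same position. Of its 15 probes, 7 were above and 8 below the controls on Day 2, with a median of 0.00, and the 13 bright ones ran from -0.12 to 0.21. On Day 4, 13 of 15 were above the controls, with a median of 0.12 and bright values from -0.05 to 0.43. The largest was cct2, A_15_P104605, at 0.43 ± 0.19 (adjusted P = 0.515). In Day 4:Day 2 the largest were cct8, A_15_P106049, at 0.36 and cct4, A_15_P100442, at 0.34 (adjusted P = 0.589 for both). On slide 1 the median CCT difference between Day 4 and Control was -0.02 with 7 of 15 above 0, and on slide 3 it was 0.30 with 14 of 15 above 0. The co-chaperones bag2, a partner of HSP70, and st13 (HIP) gave 0.20 and 0.06 in Day 4:Control (adjusted P = 0.529 and 0.822).

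In mitochondria no member passed the test. Day 2 values of the 7 bright probes ran from -0.14 for dnaja3a to 0.24 for hspd1, and their Day 4 values from -0.08 for the TRAP1-like probe, the mitochondrial HSP90, to 0.34 for another hspd1 probe. That hspd1 probe, A_15_P107421, read 3.98, 3.89 and 3.99 in controls, 4.11, 4.05 and 4.15 on Day 2, and 4.18, 4.62 and 4.20 on Day 4. The groups of hspd1 did not overlap, yet the differences of 0.15 and 0.34 from the controls were far from the threshold (adjusted P = 0.952 and 0.515). The co-chaperonin hspe1 gave 0.08 and 0.26, and the mtHSP70 probe hspa9b A_15_P111664 gave -0.06 and 0.12. For dnaja3b, A_15_P112041, the Day 2 arrays lay above both other groups without overlap. It gave 0.22 in Day 2:Control and -0.22 in Day 4:Day 2 (adjusted P = 0.818 and 0.698).

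On Day 4 most ER chaperone probes were below the controls and most cytosolic ones above. All 9 bright ER probes were below, with a median of -0.20, and 1 of all 10 ER probes did not overlap the controls. Of these 9, 4 are hsp47 probes of 1 stretch of chromosome 15 and are not separate measurements. On slide 1 their Day 4 differences from Control were 0.17, 0.06, 0.19 and -0.04. Of the 37 bright cytosolic probes 32 were above the controls, with a median of 0.20, and of the 7 bright mitochondrial probes 4 were above, with a median of 0.12. On slide 1 the medians of all ER and cytosolic probes lay closer, at -0.08 and 0.01. Among all probes well above background on all 9 arrays, 75.8% were above the controls. The median of all 10 ER probes minus the median of all such probes was -0.27 under the scaling used here and between -0.27 and -0.24 under the 3 other scalings. For all cytosolic probes this difference was 0.08 here and between 0.02 and 0.08 under the others. The cytosolic median itself was 0.0073 with quantile normalization and -0.0653 with normexp, so its place above the controls depended on the processing. On Day 2 the medians were 0.03 in the ER, -0.07 in the cytosol and 0.08 in mitochondria. No test of the compartments against each other was made.

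Calreticulin, a calcium-binding lectin of the ER, had the largest ER difference between days. The probe calr (RefSeq calr3a, A_15_P110543) read 7.11, 6.97 and 7.04 in controls, 7.50, 7.37 and 7.47 on Day 2, and 6.77, 7.01 and 6.70 on Day 4. Day 2 lay above both other groups, and Day 4 overlapped the controls. Its log2 fold change was 0.41 ± 0.13 for Day 2 over Control, -0.25 ± 0.14 for Day 4 over Control, and -0.66 ± 0.14 for Day 4 over Day 2 (adjusted P = 0.363, 0.515 and 0.271). A second calreticulin, calrl (calr3b, A_15_P118540), read 4.36, 4.20 and 4.34 in controls, 4.26, 4.27 and 4.44 on Day 2, and 3.90, 3.89 and 3.65 on Day 4. Here the Day 4 arrays were below all others, by -0.52 ± 0.14 from Control and -0.55 ± 0.14 from Day 2 (adjusted P = 0.353 and 0.342). Within slides, the calrl difference between Day 4 and Control was -0.46 and -0.56. In the bright-probe test calrl was called in both comparisons with Day 4 (4.60e-03 and 2.86e-03), and calr in Day 4:Day 2 (3.25e-04).

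The ER J-domain protein dnajb11, a partner of BiP, differed from the controls by 0.17 on Day 2 and -0.23 on Day 4, and BiP itself (hspa5) gave 0.10 and -0.20 (adjusted P = 0.952 and 0.515 for both). The hspa5 arrays read 7.43, 7.31 and 7.42 in controls, 7.56, 7.39 and 7.51 on Day 2 and 7.13, 7.41 and 7.17 on Day 4, so that the groups overlapped. The 4 hsp47 probes (serpinh1b), which share 1 stretch of chromosome 15, ran from -0.22 to -0.10 in Day 2:Control and from -0.21 to -0.03 in Day 4:Control, and none passed.

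**Figure D3:**
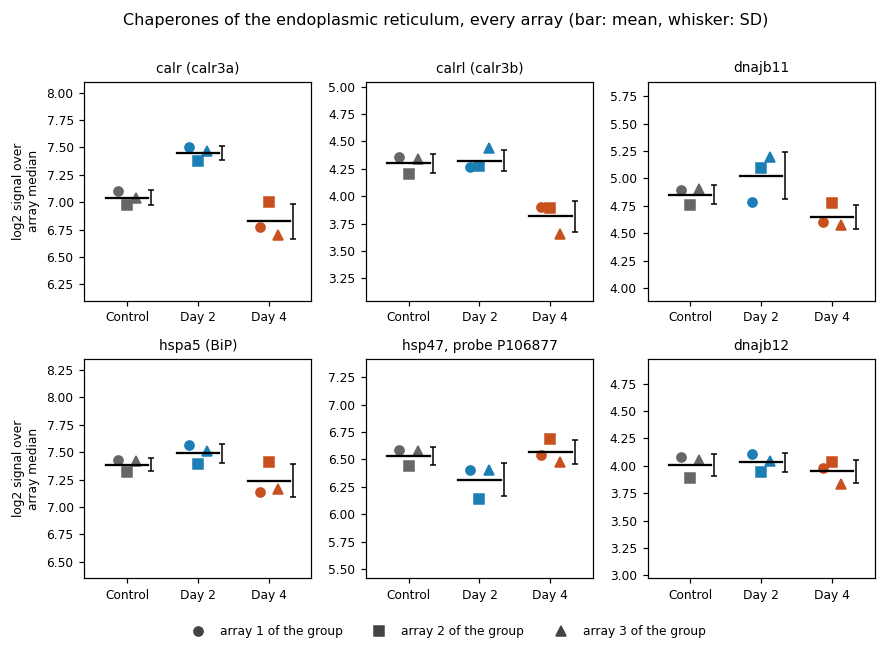
Log2 signal over the array median on every array for 6 ER probes in the Control, Day 2 and Day 4 groups, with mean and SD. The calr arrays are highest on Day 2 and the calrl arrays lowest on Day 4, while hspa5, hsp47 and dnajb12 overlap between Day 4 and Control.

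**Figure D4:**
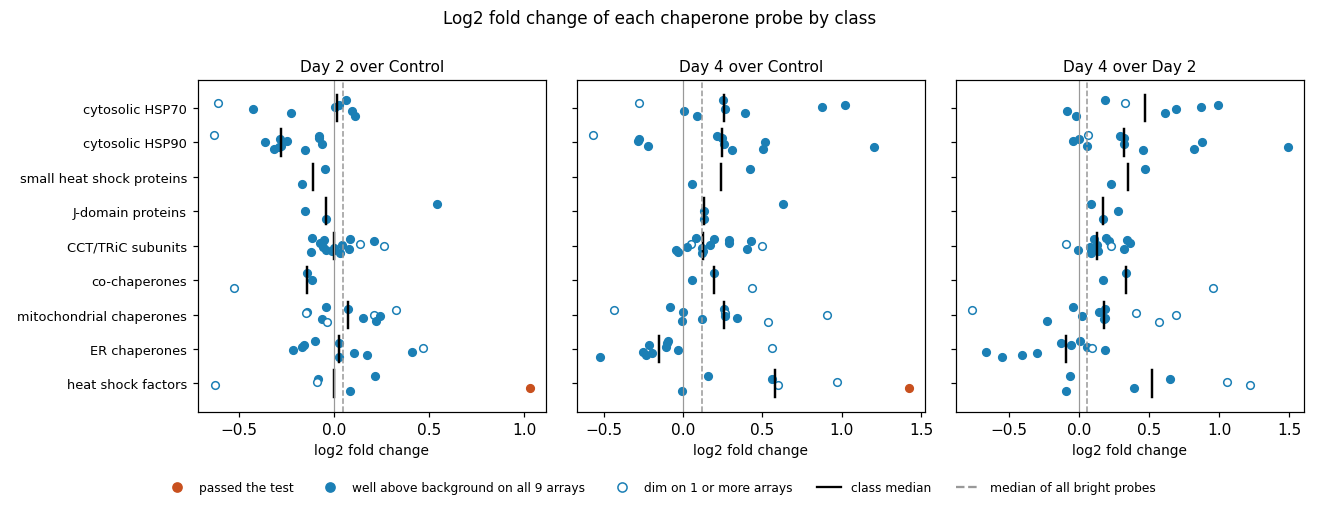
Log2 fold change of each member (x axis) by class, for Day 2 over Control, Day 4 over Control and Day 4 over Day 2, with the class median as a bar and the median of all probes well above background as a dashed line. The single hsf2 probe that passed the test is at 1.03 on Day 2 and 1.42 on Day 4, the HSP90 probes all lie below 0 on Day 2 with this scaling, and 9 of the 10 ER probes lie below 0 on Day 4.

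Over all 71 members, 28 were above the controls on Day 2 with a median of -0.05, and 49 on Day 4 with a median of 0.16. In Day 4:Day 2, 54 members were higher on Day 4 with a median of 0.18. Most probes of the array were dim, so the 57 bright members were set beside the 8024 bright probes. Their medians were -0.05 against 0.05 in Day 2:Control, 0.13 against 0.12 in Day 4:Control and 0.17 against 0.06 for Day 4 over Day 2. Over all 21495 probes, dim ones included, the medians were 0.12, 0.29 and 0.24. The Day 4 level differed between arrays. For cytosolic members the median log2 signal was 7.25 on the first Day 4 array, of slide 1. It was 7.53 on the second and 7.26 on the third, both of slide 3, against 6.98 to 7.12 in controls. On slide 1 the median member differed between Day 4 and Control by 0.01 with 37 of 71 above 0, and on slide 3 by 0.26 with 55 of 71 above 0. On slide 1 alone, hsf2, hsp70, the 3 chromosome 20 HSP90 probes that were higher on Day 4 and the DNAJB1-like probe were 0.39 to 1.27 above Control. Each of these had every Day 4 array above every control array. A slide 1 value above 0 was thus fixed beforehand, and only its size is described. The part of the slide or of a single array in these values was not tested beyond the slide term of the fit.

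**Figure D5:**
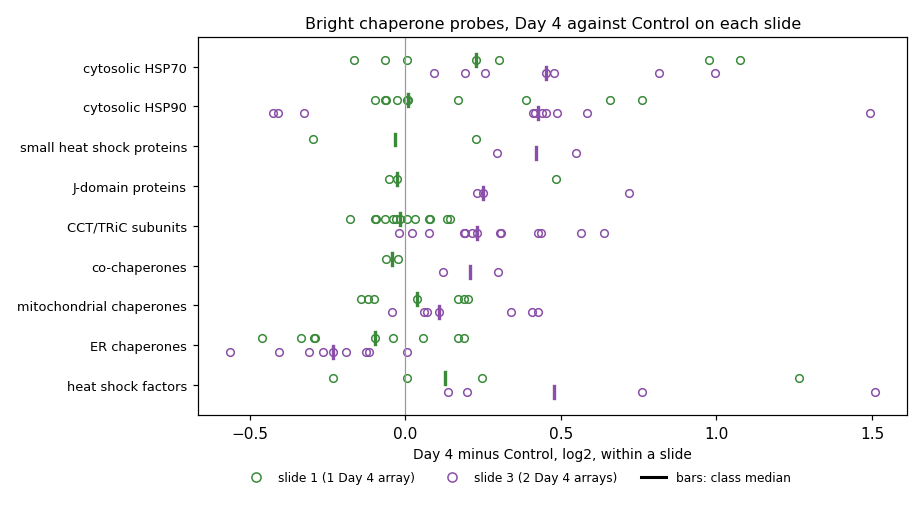
Difference between Day 4 and Control (x axis, log2) within slide 1 and within slide 3 for the members well above background on all 9 arrays, by class, with class medians as bars. The CCT probes centre near 0 on slide 1 and lie mostly above 0 on slide 3, whereas the ER probes lie mostly below 0 on both.

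Of 54 other folding and stress probes outside the selection, 0 were called in any comparison (limma), and 3, 3 and 6 passed at the unadjusted P and fold change in the 3 comparisons. Their medians were 0.13, 0.14 and 0.04. Of 22 ER folding and unfolded protein response probes among them, 18 were above the controls on Day 2 and 12 on Day 4, and 16 were lower on Day 4 than on Day 2. The highest on Day 2 were the 2 probes of txndc5, an ER disulfide isomerase, at 0.66 and 0.74 (adjusted P = 0.147 and 0.0725), which gave 0.06 and 0.08 in Day 4:Control. The 4 probes of xbp1, the unfolded protein response factor, gave 0.19 to 0.28 on Day 2 and -0.17 to 0.00 on Day 4. Of 17 probes for partners of HSP90 and HSP70, 8 were above the controls on Day 2 and 16 on Day 4. Of all probes, 67.2% were above the controls on Day 2 and 80.3% on Day 4, and of bright ones 60.7% and 75.8%. In Day 4:Day 2, 73.8% of all probes and 61.1% of bright ones were higher on Day 4.

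A probe that the selection missed, since its name is a sequence accession and its description lacks the words heat shock, was chosen after its values were seen. It is A_15_P105258, described as stress protein HSP70, on chromosome 3 at 16133936 to 16133995, near the hsp70 probes. It read 7.01, 7.08 and 7.16 in controls, 6.19, 6.10 and 6.17 on Day 2, and 7.77, 8.15 and 7.94 on Day 4. The 3 groups did not overlap. Day 4 was 3.39-fold higher than Day 2 (log2 fold change 1.76 ± 0.14, adjusted P = 0.0359), whereas the differences from the controls, -0.93 ± 0.13 on Day 2 and 0.83 ± 0.14 on Day 4, did not pass (adjusted P = 0.0530 and 0.149). Of the 32 probes outside the selection whose descriptions name a chaperone, it was the only 1 called.

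Markers of other tissues differed between the same samples. The summed level of each list was taken as its mean log2 signal per array. Pituitary probes had means of -1.72 to -1.03 in controls, 0.42 to 0.87 on Day 2 and 1.04 to 1.47 on Day 4, and 5 of 7 were called higher on Day 2 and 4 on Day 4. Those of tshb and prl were not well above background on any array. Slow muscle probes had means of 1.06 to 1.53 in controls, -0.66 to 0.14 on Day 2 and -0.29 to 1.22 on Day 4, with 2 of 5 called lower on each day and both tnnt1 probes at background. On Day 2 and Day 4 the myl10 probe was also at background, and such probes widen the means of both days. The called probes did not overlap the controls. That of tnnc1b read 4.40 to 4.63 in controls and 2.85 to 3.15 on Day 4, and that of atp2a2a 5.80 to 5.92 and 3.81 to 4.17. In fast muscle 4 of 32 probes were called lower on Day 4, and among 11 myelin and glia probes the 3 of gfap were called lower on Day 2. All 6 leukocyte probes were above the controls on both days, with means of 3.67 to 3.93 in controls, 4.31 to 4.72 on Day 2 and 4.12 to 4.83 on Day 4, and that of mpeg1.1 was called higher on Day 2. Of these 6, 1 was well above background on no array. Of the 5 probes for hair cells, 0 were called in any comparison by limma, and only myo7a in Day 4:Control had an unadjusted P below the threshold (0.0394). No probe for otolith and supporting epithelium, erythroid cells or lens was called. However, all 6 lens probes were well above background on no array, so the lack of a call says nothing about lens. The same held for 2 of 5 hair cell, 2 of 5 erythroid and 1 of 8 otolith and supporting epithelium probes. The part of these tissues in the chaperone values was not tested.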

How the data were processed

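Inner ear RNA was labelled with Cy3 and hybridized to 9 single-colour Agilent zebrafish arrays, 3 per pool. Spot intensity values were deposited by the authors as the output of Agilent Feature Extraction 9.5.1.1, corrected for background within each array and not scaled between arrays, with positions on danRer2. The authors also deposited 3 tables of comparisons with a fold change (ratio) and a P-value for each transcript, which hold their own findings and were not used.

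Control spots and outlier spots were left out, log2 intensity was centred on the 50th percentile of its array, and duplicate spots (2 per probe) were averaged. No dim probe was removed. limma 3.58.1 (lmFit, eBayes) in R 4.3.3 was fitted to all 9 arrays and all 21495 probes with terms for group and slide, and was tested on simulated data. A probe was called well above background on an array when all its unflagged spots were. Slides 2 and 3 carry the same barcode and were told apart by their scan. Over bright probes, control and Day 2 arrays of the same number, which shared a slide, deviated together (correlations of 0.50, 0.27 and 0.54). Other pairs of control and Day 2 arrays had -0.51 to 0.23, so the second pair barely stood out. Same-numbered pairs with Day 4 arrays had correlations of -0.06 to 0.12. Pairs with Day 4 arrays that shared a slide had -0.02 to 0.12. Over all probes, dim ones included, the same-numbered control and Day 2 pairs had -0.45, 0.39 and 0.75. Over bright members they had 0.26, -0.07 and 0.62, so the pairing was not seen in every set of probes.

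Named were the called members and most of the 3 largest changes of each class in each comparison among bright probes and of the reference chaperones. Other members enter only ranges, medians or counts. The members and lists were chosen with earlier results of these data known. Of the members, 59 matched a RefSeq gene, 49 by accession. Their number of arrays limits the precision. Alternatives were other scalings (75th percentile, quantile), normexp background with an offset of 50, a filter on dim probes, outlier spots kept, other uses of the slide or replicate number, other variance models, the methods' paired t-test, and leaving out each array. Leaving out slide 3 was added after the data were seen. Plots were drawn with matplotlib 3.10.9.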

Additional observations from a re-analysis of the deposited data

Results flagged for a closer look

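For 6 members the Day 2 arrays all lay on one side of the control arrays and the Day 4 arrays all on the other, in each case lower on Day 2 and higher on Day 4. This was 8.45% of the members, against 0.916% of all probes and 2.04% of probes well above background on all 9 arrays, and 4 of the 6 are HSP90 probes, of which 3 lie close together on chromosome 20. The shares of all probes and of bright probes count only this direction, and the opposite one was not counted over them. The 6 were chosen for this pattern, so their values are a description. The difference itself is the Day 4:Day 2 value, and none passed the test (limma). For the 2 probes of chromosome 20 named hsp90b, A_15_P118357 and A_15_P118422, it was 1.49 and 0.82 (adjusted P = 0.127 and 0.142). For hsp90a A_15_P112150 it was 0.88, and for hsp90b A_15_P119924 of chromosome 7 it was 0.46 (adjusted P = 0.180 and 0.442). For hspa4l A_15_P117596 it was 0.61, and for hspc049l A_15_P107477, which is no chaperone and was dim on 1 Day 4 array, it was 0.54 (adjusted P = 0.313 for both). In the bright-probe test all of these but A_15_P119924 were called in Day 4:Day 2. The pattern they were chosen for already places Day 4 above Day 2, so these calls are no added support. Day 2:Control and Day 4:Control share the control arrays. Groups of 3 arrays were too small to test for single outlying arrays.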

How the results depend on the processing

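In the order Day 2:Control, then Day 4:Control, then Day 4:Day 2, the number of members called (1, 1 and 0) became 2, 3 and 8 with the 75th percentile, 2, 5 and 10 with quantile normalization, 2, 9 and 11 among bright probes and with a variance trend, 1, 4 and 5 with no slide block, and 1, 4 and 7 with the slide as a random block. It was 0, 1 and 0 with the replicate block, so that pairing by number ended only the call in Day 2:Control (2 members passed at the unadjusted P and fold change there). The methods' t-test paired by number gave 2, 0 and 0 (4, 5 and 9 unadjusted). By limma it was 0, 0 and 0 with normexp (1, 0 and 0 unadjusted) and with only the 6 arrays of a comparison (5, 6 and 6 unadjusted). It was 1, 1 and 0 with outlier spots kept. The share of all probes that passed unadjusted was not taken in these fits, so the unadjusted counts have nothing to be set against. Leaving out 1 array gave 0 to 2, 0 to 1 and 0 calls, and calls were left only without the second Day 4 array (2 and 1). The cause was not tested.

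Over all probes, higher and lower calls numbered 118 and 40, 21 and 39, and 8 and 6. They were 410 and 219, 157 and 136, and 147 and 222 with the 75th percentile, 501 and 277, 244 and 240, and 244 and 386 with quantile normalization, and 1 and 0, 0 and 0, and 0 and 0 with normexp. All calls came to 158, 60 and 14, against 902, 960 and 954 among bright probes, 1014, 973 and 962 with the variance trend, 506, 298 and 184 with no slide block, 665, 360 and 291 with the random block, 89, 57 and 13 with the replicate block, 11, 25 and 0 with 6 arrays, and 222, 0 and 0 by the t-test.

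Median log2 fold changes of the members moved beyond the spread between arrays as follows. With the 75th percentile, Day 2:Control gave -0.116 over all members and -0.135 in the cytosol. With quantile normalization it gave -0.120 over all members. Day 4:Control gave -0.0098, 0.0073, 0.053 and -0.269 for all, cytosolic, mitochondrial and ER members, and Day 4:Day 2 gave 0.0919 in the cytosol and -0.243 in the ER. With normexp, which moved the median of bright probes to 0.42, -0.11 and -0.55, all members gave 0.340, -0.104 and -0.480, cytosolic members 0.363, -0.0653 and -0.469, mitochondrial members 0.282, -0.104 and -0.406, and ER members 0.357, -0.355 and -0.665. With slide 3 left out, all, cytosolic and mitochondrial members gave -0.0029, -0.0168 and 0.0594 in Day 4:Control, and 0.0522, 0.0535 and 0.0233 in Day 4:Day 2, where ER members gave -0.213. Within slide 1, ER members gave -0.0755 in Day 2:Control, the same 3 sets gave 0.0056, 0.0053 and 0.0371 in Day 4:Control, and cytosolic and mitochondrial members gave 0.0414 and 0.0754 in Day 4:Day 2. Within slide 3, cytosolic members gave 0.380 in Day 4:Day 2.

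Leaving out 1 array gave medians in Day 2:Control of -0.0827 to -0.0062 for all members, -0.123 to -0.0286 for cytosolic, 0.0017 to 0.151 for mitochondrial and 0.0012 to 0.042 for ER members. In Day 4:Control these were 0.0708 to 0.252, 0.106 to 0.291, 0.170 to 0.284 and -0.231 to -0.0713. In Day 4:Day 2 they were 0.0625 to 0.271, 0.0963 to 0.384, 0.0625 to 0.210 and -0.208 to -0.0065. In both comparisons with Day 4, the lowest value of all members and of the cytosol came without the second Day 4 array.

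Of the 71 members, 18, 29 and 20 kept their sign under every alternative with a test. Signal over background limits the 14 members that were dim on 1 or more arrays.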
